A study of Mus musculus with 8 samples.

Results

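The BCL2 family decides whether the outer mitochondrial membrane is opened during the intrinsic pathway of apoptosis. Its expression was examined in cultured mouse proximal tubule cells, taken freshly from kidney, given an agonist of the bile acid receptor FXR. The 10 genes described here were chosen by name: the survival genes Bcl2, Bcl2l1 (BCL-XL) and Mcl1, the pore-forming effectors Bax and Bak1, and the BH3-only death genes Bid, Bad, Bcl2l11 (BIM), Bbc3 (PUMA) and Pmaip1 (NOXA). They were represented by 13 of the 39429 non-control probes of the array, found by matching the transcript accession of each probe to a gene symbol. All 13 probes were well above background on 8 of 8 arrays, so the filter on dim probes removed no member from the 14473 genes tested.

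Survival proteins of the family bind and hold back the effectors, and BH3-only proteins release them, either by occupying the survival proteins or by engaging the effectors directly. Once BAX or BAK forms pores, cytochrome c leaves the mitochondrion and starts the caspase cascade. Much of this balance is set after transcription, by phosphorylation of BAD, cleavage of BID and rapid turnover of MCL1, so transcript levels describe only part of it. Proximal tubule cells, which depend on oxidative metabolism, are a main site of tubular cell death in kidney injury.

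The cultures came from kidney cortex of male C57/BJ mice aged 6 weeks and were grown to confluence. Cortex pieces were digested with trypsin, sieved and pelleted, with no sorting of the cells described, so other cortical cells could be present. In serum-free medium, 4 samples received the vehicle DMSO and 4 received 1 uM GW4064, a synthetic FXR agonist, in both groups for 24 h, and total RNA was measured on 1-colour Agilent arrays. Whether each sample stands for its own animal or culture is not given in the sources used here, so the p-values rest on a spread between samples that may be technical.

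On each array 61.4% to 65.7% of probes exceeded background clearly. Arrays were scaled to their 75th percentile of signal, which averaged 1626 (SD 187, n = 4) for DMSO and 1412 (SD 207, n = 4) for GW4064. There were 2 slides with 2 arrays of each group apiece, and because DMSO arrays preceded GW4064 arrays on both, position and treatment cannot be told apart. As a check of the treatment, the bile acid transporter subunits Slc51a and Slc51b, direct FXR targets, rose by 6.91 ± 0.16 and 3.40 ± 0.07 (log2, SE), Fabp6 exceeded background clearly in 0 of 4 DMSO and 4 of 4 GW4064 samples, and Nr1h4, which encodes FXR, fell by 0.45 ± 0.05. Of the proximal tubule markers, 11 of 11 were tested and 9 were higher with GW4064, against 11.8% of all tested genes.

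The promoter sequences of the survival gene that changed most, Bcl2, and of 2 death genes with which it is compared below, Bax and Bad, are shown to give the regulatory context of these transcripts. They are the 250 bases before the annotated start site, from RefSeq on assembly GRCm38.p6, read 5′ to 3′ on the strand of the gene. Capitals mark matches, on either strand, to GGGCGG (the GC box bound by SP1) or to the p53 half-site. The Bcl2 window is chr1:106714291-106714540 on the minus strand, the Bax window chr7:45466899-45467148 on the minus strand, and the Bad window, the first of 2 annotated, chr19:6941611-6941860 on the plus strand.
Bcl2: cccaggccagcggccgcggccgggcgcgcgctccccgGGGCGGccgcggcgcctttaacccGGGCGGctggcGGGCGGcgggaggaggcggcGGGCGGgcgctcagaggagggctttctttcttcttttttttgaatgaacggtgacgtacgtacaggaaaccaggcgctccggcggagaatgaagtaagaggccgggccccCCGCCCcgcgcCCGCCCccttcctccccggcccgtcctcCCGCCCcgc
Bax: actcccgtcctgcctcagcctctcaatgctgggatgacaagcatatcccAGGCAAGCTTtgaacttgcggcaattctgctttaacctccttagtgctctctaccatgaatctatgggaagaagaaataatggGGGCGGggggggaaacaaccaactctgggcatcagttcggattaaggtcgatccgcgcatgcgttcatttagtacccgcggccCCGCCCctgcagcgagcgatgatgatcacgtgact
Bad: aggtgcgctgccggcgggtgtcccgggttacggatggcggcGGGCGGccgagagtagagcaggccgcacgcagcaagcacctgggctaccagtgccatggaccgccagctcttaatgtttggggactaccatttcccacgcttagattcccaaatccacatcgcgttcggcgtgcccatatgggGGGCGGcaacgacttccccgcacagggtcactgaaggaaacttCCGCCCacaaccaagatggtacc

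The Bcl2 window held 7 GC boxes, the Bax window 2 and the Bad window 3. The Bcl2 window had a GC content of 74.8%, against a median of 52.4% over 32851 windows of the same length. Over all windows, 32.7% held a GC box. Of the 15 windows of 9 member genes that were searched, 10 did. No window of Pmaip1 was searched, and windows 2 and 3 of Bbc3 overlap. The FXR inverted repeat AGGTCANTGACCT was found in 0 of the 15 member windows and in 2 of all 32851. Its half-site AGGTCA, which lies within the inverted repeat, was found in 1 member window, the first of Bcl2l1, and in 14% of all windows. The CRE TGACGTCA was in 0 member windows and in 1.55% of all. The p53 half-site was in 1, that of Bax, and in 7.13% of all. These are matches of letters in short windows only.

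Bcl2, which encodes the founding survival protein of the family, was the member with the largest difference. Levels are on a log2 scale on which 0 is the 75th percentile of that array. The Bcl2 level was -0.93, -0.96, -0.97 and -1.04 in DMSO replicates 1 to 4 and -0.28, -0.19, -0.31 and -0.40 in GW4064 replicates 1 to 4. All 4 treated arrays lay above all 4 vehicle arrays, and the gap between the groups was wider than the range within either. Bcl2 rose 1.60-fold (log2 difference 0.68 ± 0.05 SE, 95% interval 0.56 to 0.80, n = 4 per group, adjusted p = 7.275e-05 in limma). The difference was 0.71 on slide 1 and 0.65 on slide 2.

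The scaling mattered for the separation of the Bcl2 arrays. Before scaling, the processed signal of its probe was 776, 811, 794 and 921 with DMSO and 1402, 1217, 1100 and 911 with GW4064, so that GW4064 replicate 4, whose 75th percentile was 1203, lay below DMSO replicate 4, whose percentile was 1900. Under quantile normalization, median centring and the authors' deposited table the difference was 0.68, 0.67 and 0.68. With normexp background correction it was 0.48 and did not pass (adjusted p = 0.2007 in limma). That setting raised the signal floor of DMSO replicate 3 to 1262, against 56.6 to 63.5 on the other arrays, and 6 spots on that array had a local background more than 50 above the spot itself. With those spots left out the floor was 59.2 and Bcl2 was higher by 0.55 (adjusted p = 0.00104). A single probe was matched to Bcl2. It carries accession NM_177410, 1 of the 2 Bcl2 transcripts in the RefSeq table, so no other matched probe could show whether the other transcript moved alike. A further 12201 probes matched no gene symbol and could include more probes of the members.

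**Figure D1:**
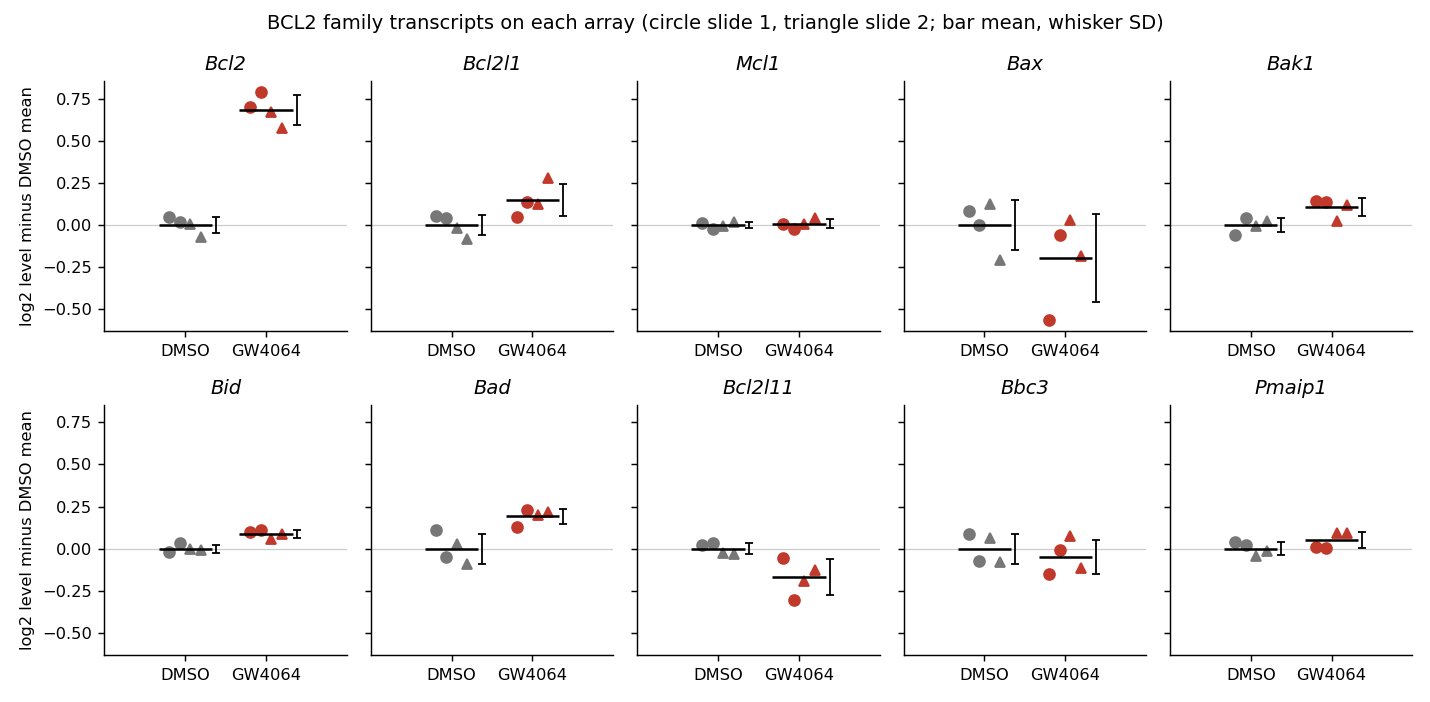
Level of each of the 10 transcripts on each array, as log2 minus the DMSO mean of that gene, with DMSO in grey and GW4064 in red; circles are slide 1, triangles slide 2, bars the group means and whiskers the SD (n = 4). The groups are farthest apart for Bcl2, whose treated arrays lie 0.68 above the DMSO mean on average, and the widest spread is that of Bax, where GW4064 replicate 1 is the lowest point.

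The other survival genes showed smaller differences. Bcl2l1, whose long splice form BCL-XL protects epithelial cells, had levels of 5.25, 5.24, 5.18 and 5.11 with DMSO and 5.24, 5.33, 5.32 and 5.47 with GW4064. The groups overlapped through GW4064 replicate 1, and 3 of 4 treated arrays exceeded every DMSO array. Before scaling, the processed signal of this probe ran from 56067 to 65738 with DMSO and from 53454 to 64269 with GW4064. The highest scaled level was on GW4064 replicate 4, the array with the lowest 75th percentile (1203). The lowest was on DMSO replicate 4, the array with the highest percentile (1900). The difference of 0.15 ± 0.06 did not pass (95% interval 0.02 to 0.28, adjusted p = 0.1056 in limma), with 0.04 on slide 1 and 0.25 on slide 2. A dimmer Bcl2l1 probe, of the same accession, gave -0.04 ± 0.06, so the probes of this gene disagreed in sign. The mean of its probes differed by 0.06, and the brighter probe by 0.11 under quantile normalization. Which splice form each probe reads was not tested.

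Mcl1, a survival protein known for its short life, was the steadiest member. Its levels ran from 3.64 to 3.68 with DMSO and from 3.64 to 3.71 with GW4064, so the groups lay over each other. The difference was 0.01 ± 0.03 (95% interval -0.07 to 0.08, a ratio of 0.955 to 1.06, adjusted p = 0.8933 in limma). A second, dimmer Mcl1 probe gave -0.04 ± 0.04. In the main setting, the interval of the brighter probe leaves room for a change of only a few percent either way in these samples. The sign turned under several settings, by median centring to -0.01. With normexp the difference was 0.14 ± 0.15, beyond that interval, and did not pass.

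Of the effectors, neither passed. Bax, which moves from the cytosol into the mitochondrial membrane when activated, had levels of 3.28, 3.20, 3.32 and 2.99 with DMSO and 2.64, 3.14, 3.23 and 3.02 with GW4064. After scaling the groups overlapped, and GW4064 replicate 1 was low on its own. Before scaling they did not overlap, with processed signals of 14371 to 15521 for DMSO and 9735 to 12759 for GW4064. GW4064 replicate 4 was then the lowest. The difference was -0.19 ± 0.13 (95% interval -0.49 to 0.11, adjusted p = 0.34 in limma), -0.35 on slide 1 and -0.03 on slide 2. Without GW4064 replicate 1 it was -0.07. The residual SD of Bax, 0.21, was the widest of the members, and its interval runs from a ratio of 0.71 to 1.08.

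Bak1, the effector that resides in the mitochondrial membrane, had levels of 2.93, 3.03, 2.99 and 3.02 with DMSO and 3.13, 3.13, 3.02 and 3.11 with GW4064. Only GW4064 replicate 3 fell within the DMSO range. The difference was 0.11 ± 0.04 (95% interval 0.01 to 0.20, adjusted p = 0.1133 in limma), and 0.15 and 0.06 on slides 1 and 2.

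Among the BH3-only genes, Bad passed the test, and by a small margin. BAD binds BCL2 and BCL-XL and is held inactive by survival kinases that phosphorylate it. Its levels were 3.104, 2.941, 3.020 and 2.902 with DMSO and 3.121, 3.223, 3.191 and 3.207 with GW4064. The groups did not overlap, but DMSO replicate 1 and GW4064 replicate 1 nearly met, and before scaling the groups overlapped (processed signal 12111 to 14203 with DMSO and 11105 to 14769 with GW4064). Bad rose 1.14-fold (0.19 ± 0.05, 95% interval 0.08 to 0.31, adjusted p = 0.03186 in limma), by 0.15 on slide 1 and 0.24 on slide 2. A dimmer Bad probe gave 0.18 ± 0.06, which did not pass over all probes (adjusted p = 0.06826 in limma), and its lowest treated array, GW4064 replicate 4 at -0.78, lay within the DMSO range of -0.85 to -0.74. The call was lost with the replicate number as a block (adjusted p = 0.0953 in limma) and when any 1 of DMSO replicates 2, 3 or 4 or GW4064 replicates 2, 3 or 4 was left out, with adjusted p between 0.05198 and 0.08715. The difference itself stayed between 0.16 and 0.23 when 1 array was left out.

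Bcl2l11 and Bid had groups that did not overlap but did not pass. Bcl2l11 encodes BIM, which binds every survival protein of the family. Its levels were -2.81, -2.80, -2.86 and -2.87 with DMSO and -2.89, -3.14, -3.03 and -2.96 with GW4064. All 4 treated arrays lay below all 4 vehicle arrays, GW4064 replicate 1 by a narrow margin. Before scaling the groups overlapped (processed signal 210 to 261 with DMSO and 154 to 229 with GW4064), and this was the dimmest member. The difference was -0.17 ± 0.06 (95% interval -0.30 to -0.04, adjusted p = 0.06804 in limma), and without GW4064 replicate 1 it was -0.21 and passed (adjusted p = 0.04024). Its probe carries 1 of 9 transcript accessions listed for the gene.

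Bid, which links the death receptors to the mitochondrion once caspase-8 has cleaved its protein, had levels of 1.70, 1.76, 1.72 and 1.71 with DMSO and 1.82, 1.83, 1.78 and 1.81 with GW4064. The arrays of each group lay close together, with SDs of 0.02 and 0.02. The processed signal before scaling overlapped (4807 to 6231 with DMSO and 4212 to 5999 with GW4064). The difference was 0.09 ± 0.03 (95% interval 0.01 to 0.16, adjusted p = 0.09418 in limma), and 0.10 and 0.08 on slides 1 and 2.

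The p53-inducible pair Bbc3 and Pmaip1 had overlapping groups. Bbc3, whose product PUMA binds all survival proteins, ranged from 2.34 to 2.51 with DMSO and from 2.27 to 2.49 with GW4064, a difference of -0.05 ± 0.06 (95% interval -0.20 to 0.10, adjusted p = 0.6225 in limma). Pmaip1, whose product NOXA acts mainly on MCL1, ranged from 2.98 to 3.06 and from 3.02 to 3.12, a difference of 0.05 ± 0.04 (95% interval -0.04 to 0.14, adjusted p = 0.406 in limma). It differed in sign between slides, -0.02 on slide 1 and 0.12 on slide 2. The intervals correspond to ratios of 0.872 to 1.07 for Bbc3 and 0.973 to 1.10 for Pmaip1.

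**Figure D2:**
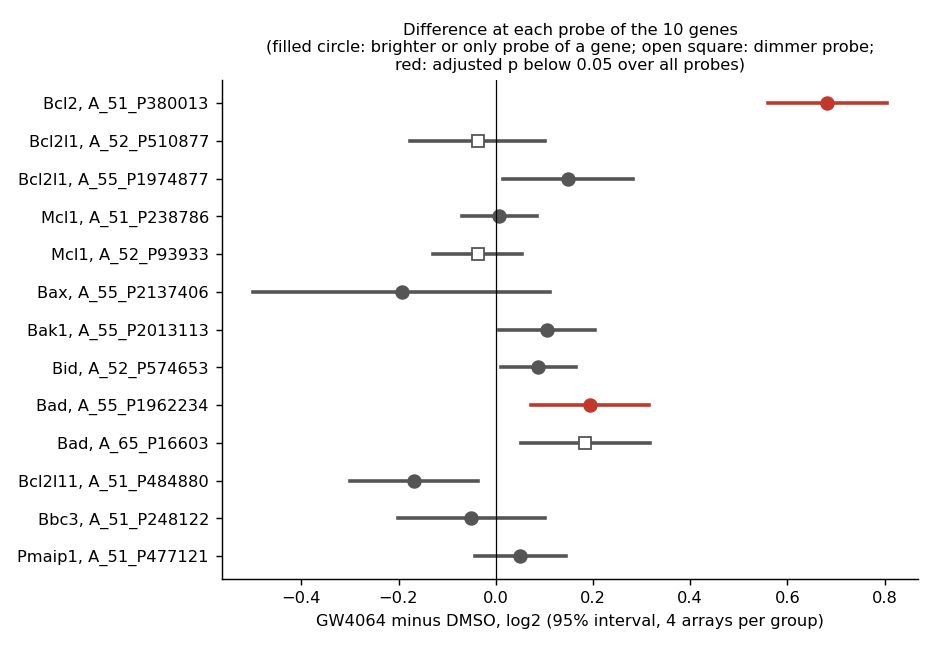
Difference between GW4064 and DMSO at each of the 13 probes, in log2 with its 95% interval (4 arrays per group); filled circles are the brighter or only probe of a gene, open squares the dimmer one, and red marks an adjusted p below 0.05 over all probes. Bcl2 at 0.68 is apart from the other probes, which lie between -0.19 and 0.19.

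Counted together, 2 of the 10 genes passed, both higher, where 20.8% of all 14473 tested genes passed, 11.8% as higher and 8.95% as lower. On slide 1 alone 1 member passed, against 6.67% of all genes, and on slide 2 alone 1, against 1.52%, in both cases Bcl2. Of all called genes 56.9% were higher, and 67.2% of the 119 called with normexp. The count of members is thus near the background and is no result about the family. Over the 13 member probes 2 passed, where 15.4% of all tested probes did. The groups did not overlap for 4 members (Bcl2, Bid, Bad and Bcl2l11), against 26.2% of all genes. The median difference of the members was 0.07, against 0.01 over all genes, and the median size of a difference 0.13 against 0.10. The size of the Bcl2 change was at or above that of 96.9% of all tested genes and of 84.3% of the genes called higher, as a description.

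Within groups the members had a median spread near that of all tested genes. Their residual SD ran from 0.02 for Mcl1 to 0.21 for Bax, with a median of 0.071, against 0.084 over all tested genes. Bax supplied the lowest member deviation from its group mean on DMSO replicate 4 (-0.21) and GW4064 replicate 1 (-0.37) and the highest on DMSO replicate 3 (0.13) and GW4064 replicates 2 (0.13) and 3 (0.23). No array held all 10 members on 1 side of their group means. For 8 of the 10 members the sign was the same on both slides, as for 72.9% of all genes.

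Because Bcl2 acts against the death genes, its level was also set against each of the 7 on the same array. These values are described without a test, since the probes differ in brightness and only their change between arrays can be read. The difference of Bcl2 and Bax rose with GW4064 by 0.88 (SD 0.11 with DMSO and 0.27 with GW4064, n = 4 each), by 1.07 on slide 1 and 0.68 on slide 2, and by 0.75 without GW4064 replicate 1. Against Bad, the death gene that also rose, it was higher by 0.49, with 0.56 and 0.41 on the slides. Against the other 5 it was higher by 0.58 (Bak1) to 0.85 (Bcl2l11). In all 7 pairs every treated array exceeded every vehicle array, but the pairs share the same Bcl2 values and are not separate observations. Bcl2 was the member with the largest difference, and the 7 death genes differed by -0.19 (Bax) to 0.19 (Bad). The separation thus follows largely from the Bcl2 levels and is no separate result about the death genes. The lowest treated value was 0.36 and the highest vehicle value 0.14.

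**Figure D3:**
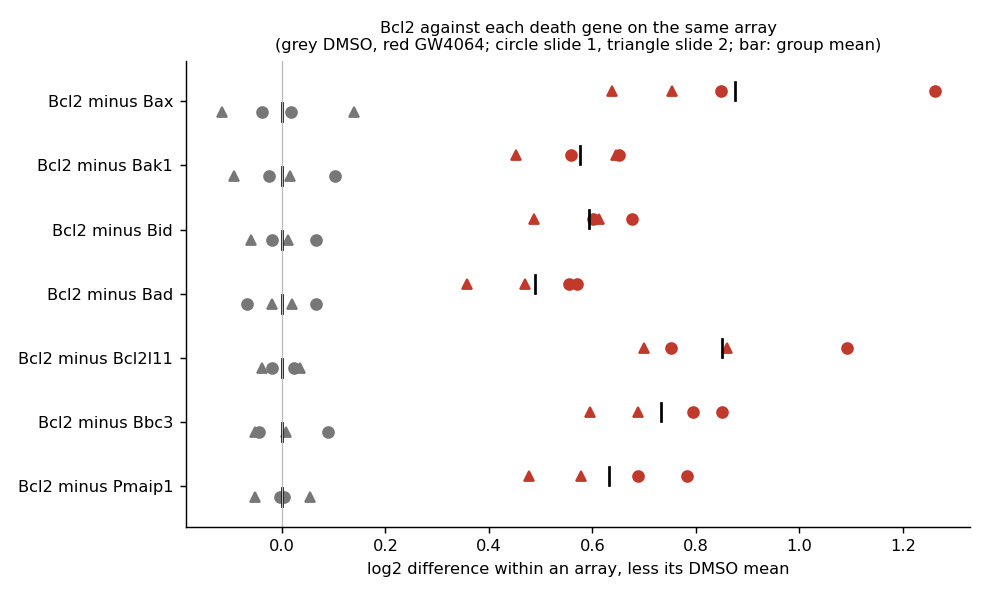
Bcl2 minus each of the 7 death genes on the same array, in log2 and less the DMSO mean of that pair; DMSO is grey, GW4064 red, circles slide 1, triangles slide 2, and bars mark group means. The treated arrays lie between 0.36 and 1.26 and the DMSO arrays between -0.12 and 0.14.

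The transcripts most like Bcl2 over the 8 arrays, by Pearson's r of log2 levels, were Gstm3 (r = 0.9955), Ang (0.9953), Dcxr (0.995), Gcdh (0.9947) and Lnx2 (0.9938). These r values were picked as the highest of all genes and follow a shared step between the groups. After the group means were taken out, r was 0.8659 to 0.9731 over the same 8 arrays. These values come from the same picked genes, so the choice raises them too, and they are a description only. All 5 rose, from 1.24-fold (Gcdh) to 2.83-fold (Ang).

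Other genes of the family were lower or did not pass. Of 15 further family genes listed, 11 were tested, of which 0 were higher, 3 were lower and 8 did not pass, with a median of -0.05. For this count and those of the pathway lists below, 11.8% of all tested genes were higher and 8.95% lower. No list was tested as a set. Bok, a BAX-like effector, fell by 0.35 ± 0.06 (1.28-fold, adjusted p = 0.003124 in limma) on the log2 scale. Bnip3l, a mitochondrial receptor for mitophagy, fell by 0.34 ± 0.06, with 4 of 4 probes in that direction. Bcl2l2 (BCL-W), a survival gene, fell by 0.17 ± 0.04. Bcl2 and Bcl2l2, which both encode survival proteins, thus differed in direction. The calls of Bok and Bnip3l were lost in 3 of 22 alternatives, with values of -0.16 and -0.17 under normexp, and that of Bcl2l2 in 4. Bnip3, named after its values were seen, was -0.41 ± 0.14 and did not pass. Bcl2l10 cleared background on 0 arrays and Hrk on 1 of 8, and neither was tested. Bcl2a1d, also named afterwards, was 0.23 ± 0.10 and did not pass; it belongs to a cluster of near-identical copies that one probe may not tell apart.

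Downstream of the mitochondrion, of 14 genes for caspases and mitochondrial release factors, 0 were higher, 3 were lower and 11 did not pass, with a median of -0.04. Dffb, the nuclease that cuts DNA during apoptosis, fell by 0.24 ± 0.06. Cycs, cytochrome c, fell by 0.18 ± 0.05 and Parp1, a DNA repair enzyme cleaved by caspases, by 0.16 ± 0.05; the call of Parp1 was lost in 16 of 22 alternatives and that of Dffb in 9, and Cycs lost its call in 15, among them normexp, where it was 0.03. Apaf1, Casp9, Diablo and Htra2, named after their values were seen, differed by 0.03 to 0.05 and did not pass.

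Of 6 inhibitor of apoptosis genes 0 were higher, 1 was lower and 5 did not pass, with a median of -0.03. Birc2 (cIAP1), a ubiquitin ligase of the TNF receptor complex, fell by 0.35 ± 0.06 (1.28-fold, adjusted p = 0.003631 in limma), by 0.37 on slide 1 and 0.34 on slide 2, a call lost in 3 of 22 alternatives. Xiap, the direct caspase inhibitor, named after its values were seen, was -0.03 ± 0.05 and did not pass. In the death receptor list 3 of 8 tested genes were higher, 1 was lower and 4 did not pass, with a median of 0.06. Cflar (c-FLIP), which blocks caspase-8, rose by 0.22 ± 0.05 with 3 of 3 probes in that direction, but the mean of those probes was higher by 0.12 and did not pass (adjusted p = 0.08151 in limma). The receptor Fas rose by 0.24 ± 0.06 and its adaptor Fadd by 0.21 ± 0.06, so a blocker of the pathway and 2 of its activating members were higher together. Tnfrsf1a, the TNF receptor, fell by 0.14 ± 0.04. Of 22 alternative settings, the call was lost in 11 for Fas, 12 for Fadd and 16 for Tnfrsf1a, and in 5 for Cflar. The ligands Fasl and Tnfsf10 were well above background on 0 and 1 of 8 arrays and were not tested.

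Of 16 genes for p53 and its targets, 1 was higher, 0 were lower and 15 did not pass, with a median of 0.03. Sesn2, a stress-induced regulator of nutrient signalling, rose by 0.15 ± 0.04 (adjusted p = 0.03789 in limma), a call lost in 15 of 22 alternatives. Trp53 itself, named after its values were seen, had groups that did not overlap but a difference of 0.33 ± 0.11 that did not pass (adjusted p = 0.07238 in limma). The p53 targets Cdkn1a (0.09 ± 0.04), Mdm2 (0.04 ± 0.04) and Ccng1 (-0.02 ± 0.06), also named afterwards, did not pass, as Bbc3, Pmaip1 and Bax did not. Of 16 other regulators of the members, 2 were higher, 1 was lower and 13 did not pass, with a median of 0.11. Bag3, a co-chaperone that stabilises survival proteins, rose by 0.20 ± 0.04, and Foxo1, a transcription factor that can induce Bcl2l11, rose by 0.15 ± 0.04. Fbxw7, a ubiquitin ligase subunit that marks MCL1 for degradation, fell by 0.18 ± 0.05. The calls of Foxo1 and Fbxw7 were lost in 11 and 12 of 22 alternatives, and that of Bag3 in 4.

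**Figure D4:**
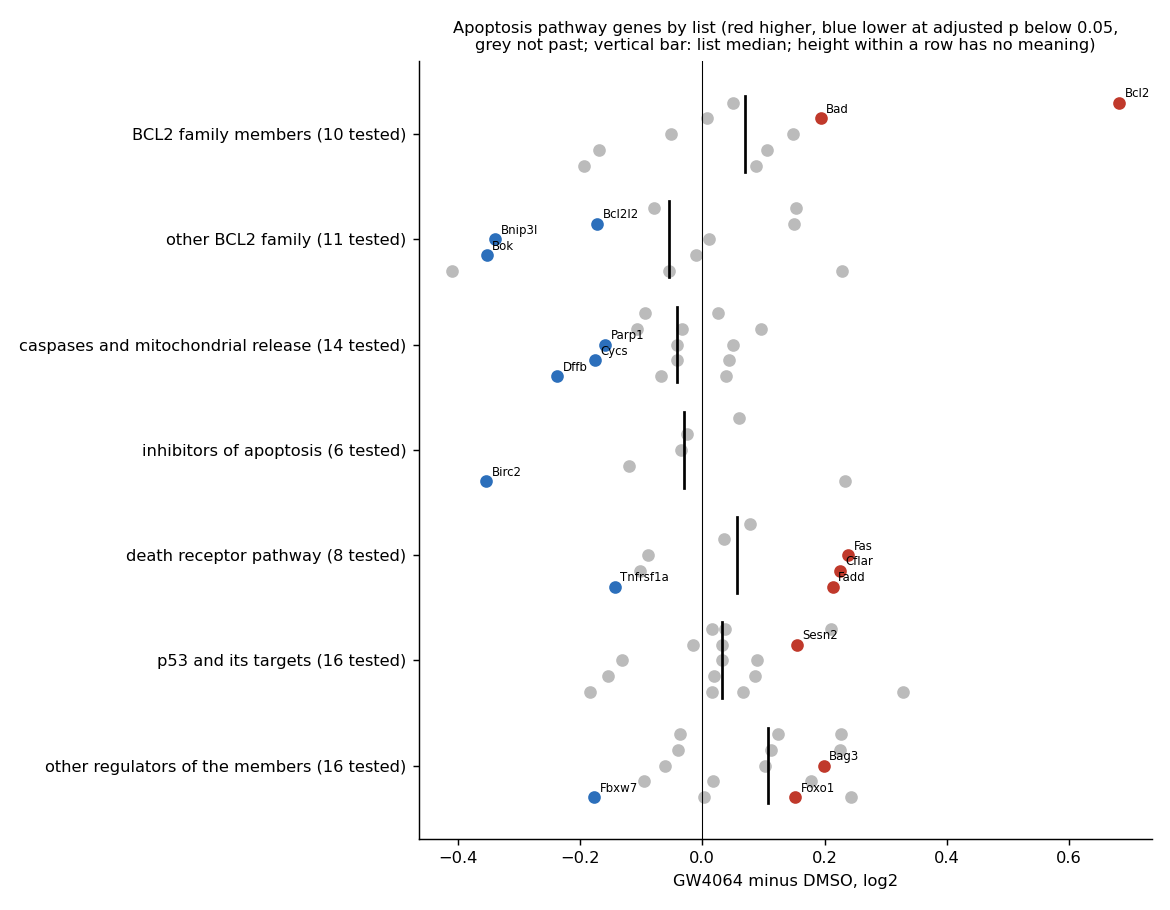
Difference between GW4064 and DMSO, in log2, for the 10 members and the tested genes of 6 related lists; red and blue mark genes higher and lower at an adjusted p below 0.05, grey genes that did not pass, and vertical bars list medians. The list medians lie between -0.05 and 0.11, and Bcl2 at 0.68 is the highest point, followed by Trp53 at 0.33, which did not pass.

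Several markers of other cells were higher in the treated samples too. Over all tested genes, 11.8% were higher and 8.95% lower. Blood cells express Bcl2, and fewer cells of a type cannot be told apart in bulk RNA from less RNA per cell. Of 11 tested leukocyte and macrophage markers 5 were higher and 0 lower, and their mean level ran from -2.31 to -2.08 with DMSO and from -2.05 to -1.90 with GW4064. The 5 that rose, named after their values were seen, were the macrophage growth factor receptor gene Csf1r (0.75 ± 0.05), Cd74 (0.52 ± 0.13), Tyrobp (0.43 ± 0.12), Coro1a (0.35 ± 0.08) and C1qb (0.27 ± 0.06). Ptprc, the general leukocyte marker, also named afterwards, differed by -0.90 ± 0.54 and did not pass. It was at -1.53 in DMSO replicate 4, against -4.10 to -4.01 in the other DMSO samples and -4.39 to -4.18 with GW4064. Without Ptprc, a choice made after seeing the data, the mean level of the other 10 ran from -2.14 to -1.97 with DMSO and from -1.81 to -1.65 with GW4064. Of 8 endothelial markers 4 were higher and 0 lower (mean level -2.0 to -1.8 with DMSO and -1.6 to -1.5 with GW4064), with Tek well above background on 0 arrays. Of 8 fibroblast and smooth muscle markers 3 were higher and 0 lower (-0.17 to 0.09 and 0.12 to 0.26), with Lum on 0 arrays. Of 5 markers of other nephron segments 0 were higher and 2 lower (-2.45 to -2.40 and -2.75 to -2.45), although their median difference was 0.12. The part of these cells in the Bcl2 and Bad differences was not tested.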

How the data were processed

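Total RNA of 8 samples (4 DMSO, 4 GW4064) was hybridised to 1-colour Agilent arrays. Deposited values are spot intensity after background subtraction and detrending by the scanner software (per the file headers, Feature Extraction 10.7.3.1). In the submitters' processing notes Agilent Feature Extraction 10.7 and limma are listed. The authors also deposited a table of log2 values whose scale is not stated; its columns share 1 median (6.598) and followed the scanner signal of the same array (r of at least 0.99962) more closely than that of another (at most 0.99353), so it served as an alternative. Its further centring stays unknown.

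Each array held 44397 spots. The 1377 control spots and spots marked as outliers (98 to 174 per array) were left out, and spots of a probe were averaged as log2. Values were log2 of the signal minus the array's 75th percentile. Probes well above background on at least 4 of 8 arrays, and not wholly marked on any (85 were), were kept (24723). Accessions were matched without versions to the RefSeq gene table of GRCm38.p6, which named 27228 probes (69.1%); the file headers name build mm9, so coordinates are given only for promoter windows of the RefSeq table. A gene was represented by its brightest kept probe; levels of different probes are not compared.

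The comparison used limma 3.58.1 under R 4.3.3 (lmFit, eBayes, Benjamini-Hochberg over all genes or probes tested, threshold 0.05), which was tested on simulated data; errors are standard errors of that fit. The members and lists were chosen with earlier results of these data known. A few genes of the lists are not reported here and are left out of their counts. Genes named besides the members are, per list, up to 4 called in each direction with the smallest p, 4 FXR check genes, and the 5 most correlated with Bcl2; any other is marked as named after its values were seen, or is given only by the arrays on which it cleared background. No pairing of the samples by replicate number was seen, which does not settle whether they shared animals or cultures. Alternatives covered background correction, normalization, centring, filters, probes of a gene, blocks for replicate number and slide (scan date splits the arrays alike), each slide alone, weights per array, a robust fit with a trend, the deposited table and leaving out each array. The number of arrays limits the precision.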

Additional observations from a re-analysis of the deposited data

Results flagged for a closer look

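Of 66 groups of 4 arrays examined, 3 (4.55%) had 1 array far from the other 3, where chance gives about 5%. The groups covered the members' probes, the called genes named from the further family and pathway lists, the FXR check genes and the signal percentile. Cell type markers such as Ptprc, the genes most like Bcl2 and those named after their values were seen were not examined. Bak1 was low in GW4064 replicate 3 (3.017, others 3.113 to 3.132). The dimmer Bad probe was low in GW4064 replicate 4 (-0.7764, others -0.5914 to -0.5581). Bcl2l2 was high in GW4064 replicate 4 (-0.3513, others -0.3942 to -0.388).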

How the results depend on the processing

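Bcl2 was higher in all 22 alternatives (0.48 to 0.72) and passed in each except normexp. Bad was higher in all 22 (0.15 to 0.33) and lost its call in 11. Of the 10 members, 0 passed with normexp, and 1 passed with no filter on dim probes, with the replicate block and on slide 1 or slide 2 alone; leaving out 1 array gave 1 to 3. Of the 13 member probes, 0 passed with normexp and on slide 2 alone, and 1 passed with normexp without the spots of high local background (chosen after seeing the data), with quantile normalization, with no filter, with the replicate block, with the slide block, on slide 1 alone and with the deposited table; leaving out 1 array gave 1 to 2. Over all genes the 3006 calls became 119 with normexp, 2243 with normexp without those spots, 2322 with the replicate block, 966 on slide 1 and 220 on slide 2. With the spots on DMSO replicate 3 left out, the normexp calls rose from 119 to 2243, still below 3006. Normexp also starts from the median signal and local background of each spot rather than the processed signal. The part of that change was not tested. On single slides fewer samples entered; for the other changes the cause was not tested.

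Replicate numbers are shared by the groups, but no pairing by number was seen: deviations of same-numbered arrays correlated at -0.131, -0.0286, 0.192 and -0.022, and 2 of 8 arrays correlated best with their own number. These values cannot settle whether samples shared an animal or culture, which the sources do not give. Differences near 0 turned sign. Mcl1 was -0.0070 with normexp without those spots, -0.0075 with median centring, -0.0146 as the mean of its probes, -0.00080 on slide 1, and between -0.0041 and 0.0172 when 1 array was left out. Bbc3 was 0.0065 with normexp, Pmaip1 -0.0226 on slide 1, the dimmer Bcl2l1 probe 0.049 on slide 2, the dimmer Mcl1 probe 0.0211 and Cycs 0.032 with normexp.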
